A study of Mus musculus with 12 samples.

Results

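The genes described here are 7 angiopoietin and angiopoietin-like genes of the mouse: Angpt1, Angpt2, Angpt4, Angptl1, Angptl2, Angptl4 and Angptl7. They were picked by gene symbol from the 33352 rows of the raw count table because their levels in the sorted populations were already known, so their levels are given as a description with no test. All 7 were also among the 19016 genes with enough counts to enter the statistical fit. Angptl6 and Angptl8, family members outside the selection, stayed below 3 CPM in every library and are described at the end.

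Poly(A) RNA was measured in cells sorted by flow cytometry from the aortas of wild-type male CD-1 mice aged 13 weeks, along with the perivascular adipose tissue around the vessel. The groups were a pair of smooth muscle populations named SMC2 and SMC1, the Intermediate cells and the Progenitor cells, with 3 libraries each and the same strain, sex and age throughout. The kit for very small amounts of RNA did not mark strand, and how the sort was gated is not given in the sources used here. Replicate numbers were not said to mark animals, so errors and p-values cover library-to-library spread, part of which may be technical.

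Angiopoietins are secreted ligands of the receptor tyrosine kinase TIE2, which the gene Tek encodes and which endothelial cells are best known for carrying. Angpt1 activates TIE2 and keeps vessels quiescent, while Angpt2 can block or activate it depending on the setting. Angiopoietin-like proteins are not ligands of the TIE receptors, though most share the coiled-coil and fibrinogen-like domains of the angiopoietins. Angptl4 inhibits lipoprotein lipase, the enzyme that releases fatty acids from circulating triglyceride, and in fat it is known as a regulator of lipid uptake.

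The promoter windows below belong to the members that were higher in Progenitor and Intermediate than in either smooth muscle population and for which RefSeq gave a window free of annotated exons. RefSeq windows were found for 4 of the 7 members (GRCm38.p6), each the 250 bases before the annotated start, printed 5′ to 3′ on the strand of the gene. Capitals mark GGGCGG, the binding motif of SP factors, on either strand, and TATAAA, the core promoter element that binds the general transcription machinery. The windows are chr2:151910957-151911206 on the plus strand for Angpt4, chr2:33215711-33215960 on the plus strand for Angptl2 and chr4:148500463-148500712 on the minus strand for Angptl7.
Angpt4: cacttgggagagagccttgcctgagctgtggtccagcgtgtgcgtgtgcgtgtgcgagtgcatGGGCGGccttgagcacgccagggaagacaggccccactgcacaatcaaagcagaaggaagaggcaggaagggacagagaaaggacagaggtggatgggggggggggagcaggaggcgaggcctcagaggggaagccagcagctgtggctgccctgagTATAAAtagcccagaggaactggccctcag
Angptl2: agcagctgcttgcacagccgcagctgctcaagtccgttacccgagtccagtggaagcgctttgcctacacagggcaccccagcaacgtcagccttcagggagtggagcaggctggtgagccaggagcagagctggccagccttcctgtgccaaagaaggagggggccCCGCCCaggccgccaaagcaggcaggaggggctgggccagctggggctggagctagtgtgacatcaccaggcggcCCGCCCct
Angptl7: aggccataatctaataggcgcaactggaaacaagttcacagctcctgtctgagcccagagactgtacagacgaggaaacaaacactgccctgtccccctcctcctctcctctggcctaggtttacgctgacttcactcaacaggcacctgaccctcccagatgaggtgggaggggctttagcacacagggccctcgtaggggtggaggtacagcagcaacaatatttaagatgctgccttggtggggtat
The Angpt4 window held TATAAA at 30 to 25 bases before the start and GGGCGG at 187 to 182 bases before it. The Angptl2 window held GGGCGG on the reverse strand at 83 to 78 and again at 8 to 3 bases before the start. None of the searched motifs lay in the Angptl7 window. The search covered both strands for the SP motif GGGCGG, the core promoter element TATAAA, the nuclear receptor core AGGTCA, the hypoxia-inducible factor core ACGTG and the CArG box of serum response factor. Over all 32841 windows of the same length these were present in 32.7%, 12.4%, 14.0%, 16.6% and 1.47%, in that order, and the matches found do not overlap each other. A match describes letters only.

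Library sizes ran from 13258631 to 22647175 counts. Levels are given as CPM, the usual read count scaled to the size of each library, and levels of different genes are compared as CPM per kilobase of annotated exon. The 8 fibroblast and progenitor markers summed to 420 to 865 CPM in SMC2, 1051 to 1858 in SMC1, 40970 to 49092 in Intermediate and 50200 to 62616 in Progenitor, and the 8 smooth muscle markers to 18822 to 26836, 29185 to 35326, 491 to 625 and 254 to 551 CPM in the same order. SMC1 replicate 1 stood apart, with 534 CPM over 6 leukocyte markers, against 110.3 and 119 CPM in the other SMC1 libraries, and Lyz2 alone made up 482 of it. That library also had the highest SMC1 sums of fibroblast (1858 CPM against 1051 and 1350), adipocyte (304 against 182 and 154) and mesothelial markers (69.2 against 36.6 and 39.5). Its sum of 8 endothelial markers was the highest as well (382 against 303 and 313), and its pericyte sum the lowest (2781 against 3159 and 3509). Intermediate replicate 3 had 409 CPM over 8 mesothelial markers, against 181 and 171 in the other Intermediate libraries. No marker was at 0 in every library of any group.

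Each population had its own mixture of the 7 genes. Angptl4 and Angpt2 led in SMC2, Angpt2 and Angptl2 in SMC1, and Angptl7 exceeded all others together in Intermediate, while Progenitor had the most even mixture. As a share of the summed CPM per kilobase of the 7 genes, Angptl4 took 37.4 ± 1.08% and Angpt2 30.1 ± 3.42% in SMC2, and Angpt2 took 37.2 ± 2.89% and Angptl2 32.7 ± 5.11% in SMC1 (SD, n = 3 each). Angptl7 took 91.3 ± 0.423% in Intermediate and 36.7 ± 4.57% in Progenitor, where Angptl4 held 20.8%, Angptl2 16.8%, Angptl1 11.9% and Angpt4 11.4%. The sum itself was 151 to 164 CPM per kilobase in SMC2, 99.7 to 119 in SMC1, 1809.8 to 2583 in Intermediate and 358 to 394 in Progenitor, with no overlap between any pair of groups. These are bulk libraries, in which fewer cells making a transcript and less of it per cell cannot be told apart.

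**Figure D1:**
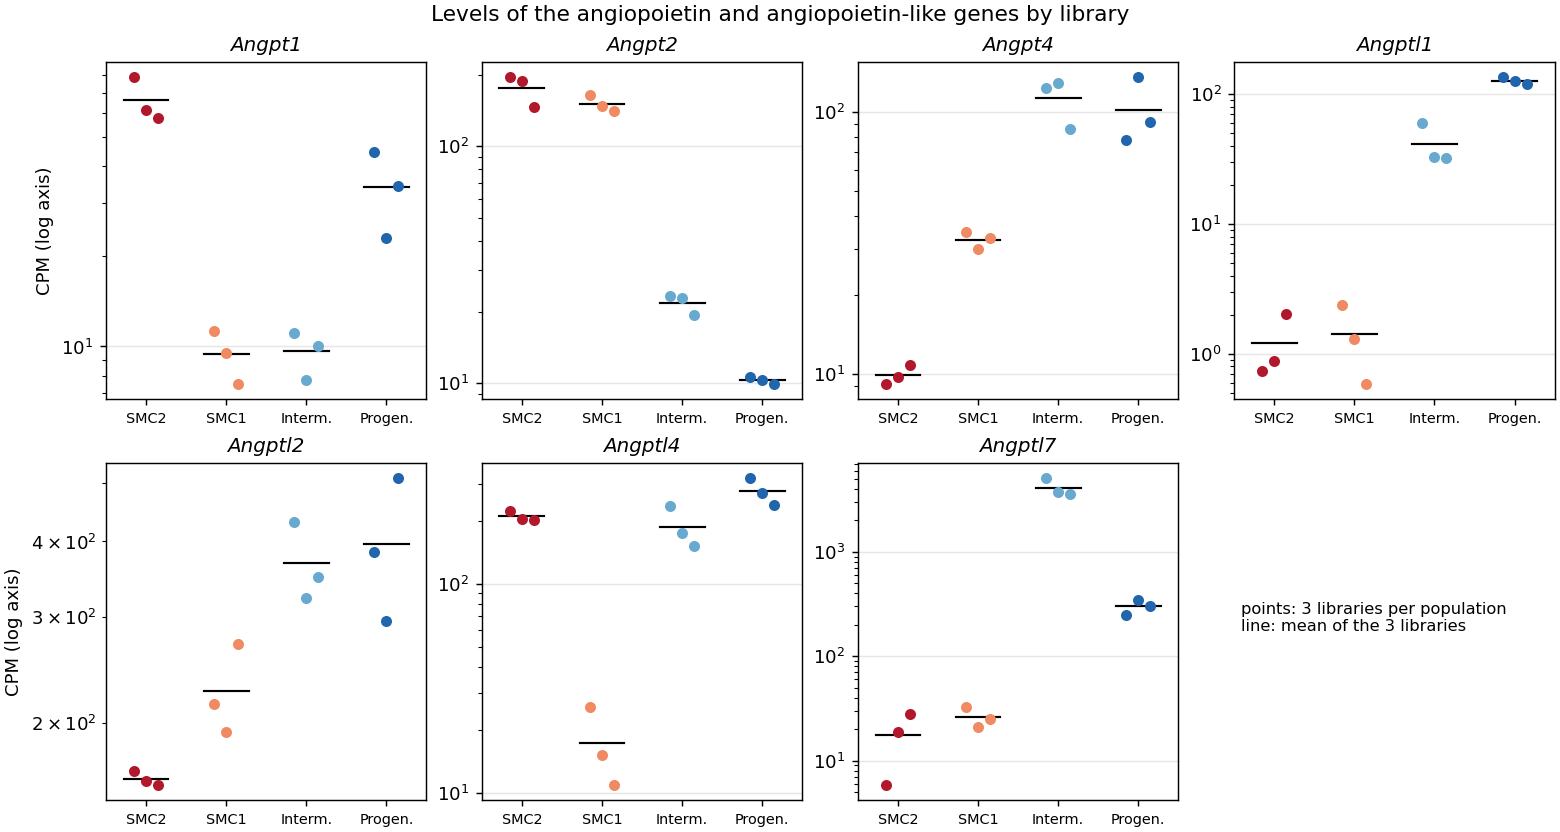
Level of each of the 7 genes by library, in CPM on a log axis of its own range for each gene; points are the 3 libraries of SMC2, SMC1, Intermediate (Interm.) and Progenitor (Progen.), and lines are their means. Angpt1 was low in SMC1 and Intermediate, Angptl4 was low in SMC1, and Angpt2 was high in SMC2 and SMC1. Angpt4, Angptl1 and Angptl2 were higher in Intermediate and Progenitor, and Angptl7 had means of 4134 CPM in Intermediate and 300.1 CPM in Progenitor.

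Angpt1, the TIE2 agonist, was highest in SMC2, next in Progenitor and lowest in SMC1 and Intermediate. Its level was 78.8, 61.4 and 57.9 CPM in SMC2, 11.2, 9.51 and 7.5 CPM in SMC1, 11.1, 7.72 and 10.0 CPM in Intermediate and 44.5, 22.9 and 34.2 CPM in Progenitor. Every SMC2 library lay above every Progenitor library, and every Progenitor library above all of SMC1 and Intermediate, whose libraries overlapped. The fitted log2 change was 2.81 ± 0.23 (standard error) for SMC2 over SMC1 and 0.96 ± 0.22 for SMC2 over Progenitor. It was -1.85 ± 0.23 for SMC1 over Progenitor and -1.82 ± 0.23 for Intermediate over Progenitor. SMC1 and Intermediate differed by -0.03 ± 0.23 on that scale, within the spread of their libraries. The gene lies on the minus strand of chromosome 15 (chr15:42424723-42676977, GRCm38, the assembly also called mm10), and 14.2% of its exon bases are also exon of the antisense gene Gm17473, which averaged at most 0.598 CPM in any group.

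Angpt2, the ligand that can counteract Angpt1 at TIE2, separated the smooth muscle populations from the others. Its level was 195, 188 and 146 CPM in SMC2, 164, 147 and 141 CPM in SMC1, 23.4, 22.8 and 19.4 CPM in Intermediate and 10.7, 10.3 and 9.92 CPM in Progenitor. The groups stood in the order SMC2, SMC1, Intermediate and Progenitor, and only SMC2 and SMC1 overlapped. As a share of all counts these did not overlap, at 0.0184 to 0.0214% in SMC2 and 0.0136 to 0.0159% in SMC1. Intermediate exceeded Progenitor by a log2 change of 1.08 ± 0.17, SMC1 exceeded Progenitor by 3.87 ± 0.18, and SMC2 over SMC1 came to 0.23 ± 0.15. The 9 endothelial markers other than Tek and Tie1 summed to 441 to 543 CPM in SMC2, 355 to 486 in SMC1, 95.4 to 148 in Intermediate and 62.1 to 130 in Progenitor, but Esam alone averaged 390.4 CPM in SMC2, 79.1 in SMC1, 14.1 in Intermediate and 13 in Progenitor. Without Esam the other 8 markers summed to 48.7 to 126 CPM in SMC2, 303 to 382 in SMC1, 84.3 to 134 in Intermediate and 52 to 115 in Progenitor. These markers were thus higher in SMC1, as Angpt2 was, but in SMC2, where Angpt2 had its highest mean, they overlapped Intermediate and Progenitor. Their part in the Angpt2 level was not tested. Angpt2 spans chr8:18690263-18741562 on the minus strand of GRCm38, within the introns of Mcph1 on the opposite strand, with which it shares 0 exon bases. Mcph1, a gene of chromosome condensation, averaged 6.82, 7.49, 4.93 and 6.1 CPM in SMC2, SMC1, Intermediate and Progenitor. Its means too were higher in SMC2 and SMC1, over a narrower range. For SMC1 over Intermediate the log2 change was 0.60 ± 0.21 for Mcph1 and 2.79 ± 0.17 for Angpt2. The part of Mcph1 reads in the Angpt2 level was not tested.

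Set against each other per kilobase of exon, Angpt2 exceeded Angpt1 in every library of SMC2, SMC1 and Intermediate, and Angpt1 exceeded Angpt2 in every Progenitor library. The ratio of Angpt2 to Angpt1 was 3.49, 4.32 and 3.56 in SMC2, 20.6, 21.9 and 26.6 in SMC1, 2.97, 4.16 and 2.72 in Intermediate and 0.338, 0.636 and 0.409 in Progenitor. SMC1 stood highest without overlap. SMC2 and Intermediate overlapped in this ratio although both ligands were several times more abundant in SMC2.

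**Figure D2:**
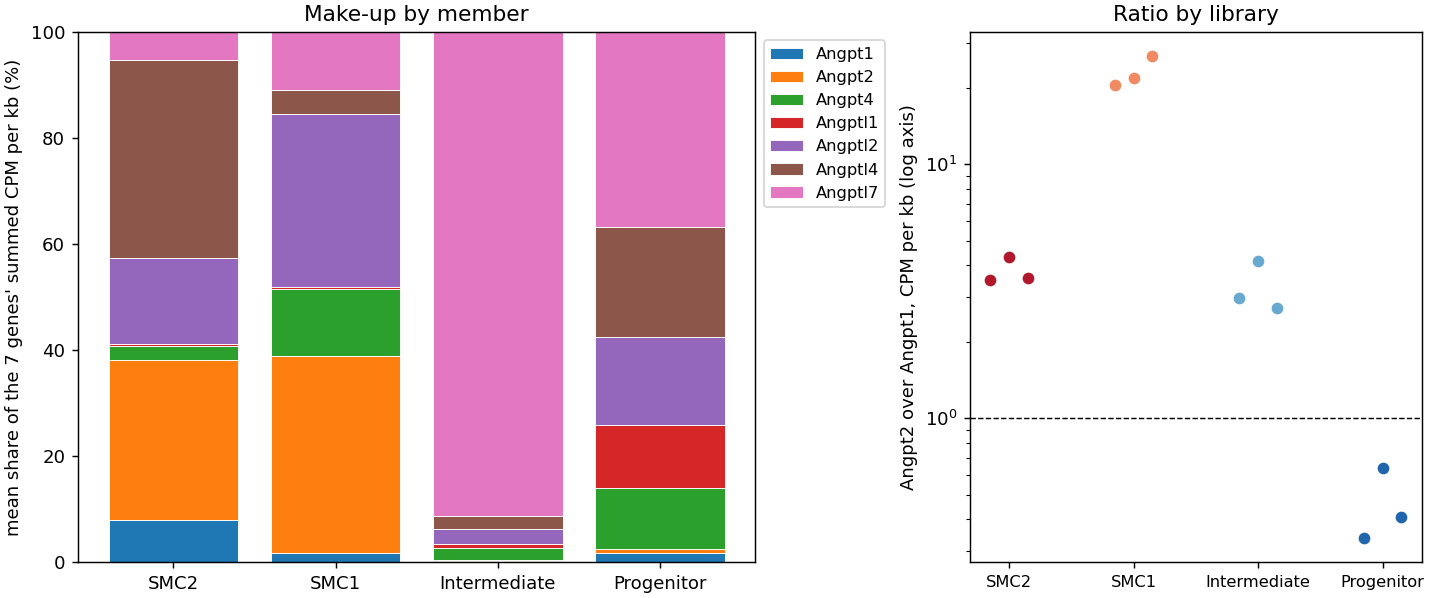
Left, mean share of the 7 genes' summed CPM per kilobase (%) held by each gene in SMC2, SMC1, Intermediate and Progenitor (3 libraries each). Right, ratio of Angpt2 to Angpt1 in CPM per kilobase by library, on a log axis with a dashed line at 1; the SMC1 libraries lie between 20.6 and 26.6 and the Progenitor libraries between 0.338 and 0.636.

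Angpt4, the third angiopoietin and also a TIE2 ligand, ran opposite to Angpt2. Its level was 9.16, 9.73 and 10.8 CPM in SMC2, 34.7, 29.9 and 32.9 CPM in SMC1, 123, 129 and 86.1 CPM in Intermediate and 78, 135 and 91 CPM in Progenitor. Intermediate and Progenitor overlapped, SMC1 lay below both, and SMC2 lay below SMC1 without overlap. The log2 change was 0.15 ± 0.19 for Intermediate over Progenitor, -1.64 ± 0.20 for SMC1 over Progenitor and -1.72 ± 0.21 for SMC2 over SMC1. In Intermediate and Progenitor Angpt4 was the most abundant of the 3 angiopoietins per kilobase, at 48.3 and 43.4 CPM per kilobase, against 5.92 and 2.79 for Angpt2 and 1.85 and 6.51 for Angpt1. Angpt4 occupies chr2:151911210-151945337 on the plus strand, and no other annotated gene overlaps it.

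Angptl1, a secreted protein described as inhibiting vessel growth, was a Progenitor and Intermediate transcript that was nearly missing from the smooth muscle libraries. Its level was 0.736, 0.889 and 2.04 CPM in SMC2, 2.39, 1.31 and 0.586 CPM in SMC1, 59.7, 32.7 and 32.5 CPM in Intermediate and 135, 127 and 119 CPM in Progenitor. Progenitor lay above Intermediate, and Intermediate above both smooth muscle populations, which overlapped. The smooth muscle values rest on 16, 18 and 34 counts in SMC2 and 47, 28 and 10 counts in SMC1. The log2 change was -1.61 ± 0.30 for Intermediate over Progenitor and -6.45 ± 0.40 for SMC1 over Progenitor, or -7.09 without SMC1 replicate 1. For SMC2 over Progenitor it was -6.74 ± 0.41, or -7.35 without SMC2 replicate 3. SMC2 over SMC1 came to -0.29 ± 0.47, and to 0.27 without SMC1 replicate 1, so no direction is given. The gene lies at chr1:156838562-156861078 on the plus strand within Ralgps2, on whose exons it has 0 bases. Ralgps2 averaged 2.67, 1.66, 3.17 and 8.8 CPM in SMC2, SMC1, Intermediate and Progenitor. In SMC2 and SMC1 that lay above the Angptl1 means of 1.22 and 1.43 CPM. The Ralgps2 log2 change was -1.47 ± 0.33 for Intermediate over Progenitor and -2.41 ± 0.35 for SMC1 over Progenitor, the directions of Angptl1. The part of Ralgps2 reads in the Angptl1 level was not tested. The antisense model Gm37802, at most 0.475 CPM on average, shares 16.4% of the Angptl1 exon bases.

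Angptl2, a ligand of integrins and of the immune receptor PirB, varied least of the 7 genes. Its level was 166, 160.2 and 158 CPM in SMC2, 215, 193 and 269.9 CPM in SMC1, 431, 323 and 349.8 CPM in Intermediate and 385, 295 and 509.9 CPM in Progenitor. The order was Progenitor, Intermediate, SMC1 and SMC2, with overlap only between Progenitor and Intermediate. SMC1 over Progenitor had a log2 change of -0.81 ± 0.20, SMC2 over SMC1 one of -0.49 ± 0.20 and Intermediate over Progenitor one of -0.11 ± 0.20. Angptl2 lies at chr2:33216069-33247717 on the plus strand within Ralgps1, a relative of the gene that contains Angptl1, and shares 0 exon bases with it. Ralgps1 averaged between 6.03 and 9.37 CPM over the 4 groups.

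Angptl4, the lipoprotein lipase inhibitor, was abundant in 3 of the 4 populations and low in SMC1. Its level was 223, 204 and 202 CPM in SMC2, 25.9, 15.2 and 11 CPM in SMC1, 236, 174 and 151 CPM in Intermediate and 319.8, 270.1 and 239 CPM in Progenitor. Progenitor lay above the other groups without overlap, but narrowly, with 239 CPM in its lowest library and 236 in the highest Intermediate library. As a share of all counts it overlapped SMC2, at 0.0224 to 0.031% in Progenitor and 0.023 to 0.0254% in SMC2. The fitted change of SMC2 over Progenitor was -0.40 ± 0.24 log2 units. SMC2 and Intermediate overlapped, and the highest SMC1 library was far below the lowest of any other group. The log2 change was 3.59 ± 0.26 for SMC2 over SMC1, -3.99 ± 0.27 for SMC1 over Progenitor and -0.56 ± 0.24 for Intermediate over Progenitor. Without SMC1 replicate 1 the first of these was 3.99 and the second -4.47. Adipocyte markers had their highest sum in SMC2: the 9 markers summed to 2170 to 2485 CPM in SMC2, 154 to 304 in SMC1, 49.3 to 74.4 in Intermediate and 107 to 134 in Progenitor. Fabp4 made up most of these sums, with means of 1476, 195, 54.9 and 113 CPM in the same order. Adipoq averaged 90.2 CPM in SMC2 and 1.23 in SMC1, while Cidea went the other way, at 4.16 and 8.29 CPM. Mean Angptl4 was 276 CPM in Progenitor, 210 in SMC2 and 187 in Intermediate. The part of adipocytes in the SMC2 levels of Angptl4 and Angpt1 was not tested. The gene occupies chr17:33773750-33781830 on the minus strand and overlaps no other annotated gene.

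Angptl7, a secreted protein best known from the cornea and the outflow tissue of the eye, was among the most abundant transcripts of the Intermediate cells. Its level was 5.89, 18.7 and 28 CPM in SMC2, 32.8, 20.9 and 25.1 CPM in SMC1, 5103, 3728 and 3572 CPM in Intermediate and 246, 348 and 306 CPM in Progenitor. The lowest Intermediate library exceeded the highest Progenitor library, every Progenitor library exceeded all smooth muscle libraries, and SMC2 and SMC1 overlapped. The 3 Intermediate libraries held 82117, 59373 and 55926 counts of it, or 0.372 ± 0.0426% of all their counts (SD, n = 3). By mean CPM it ranked 15 of the 19016 genes in Intermediate and 492 in Progenitor. Intermediate over Progenitor had a log2 change of 3.78 ± 0.40, SMC1 over Progenitor one of -3.51 ± 0.40 and SMC1 over Intermediate one of -7.30 ± 0.48. SMC2 over SMC1 came to -0.59 ± 0.38, within the spread of the libraries.

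Replicate 1 of SMC2 had both the lowest Angptl7 level and the lowest fibroblast sum of its group, 420 CPM against 820.3 and 865. Its sums of leukocyte (94.8 against 159 and 221), Schwann cell (45.7 against 58.1 and 93.2) and mesothelial markers (15.4 against 39.1 and 29.8) were lowest too. So was its sum of the 8 endothelial markers without Tek, Tie1 and Esam (48.7 against 115 and 126). Its smooth muscle and pericyte sums were the highest of the group, and its adipocyte sum lay between the others. Mesothelial markers were higher in Intermediate, at 171 to 409 CPM, than in SMC2, SMC1 or Progenitor, at 15.4 to 69.2 CPM over those groups. Of these markers, Wt1 went the other way, with means of 17.9 CPM in Progenitor and 5.7 in Intermediate. In Intermediate replicates 1, 2 and 3 the mesothelial sum was 181, 171 and 409 CPM, and Angptl7 was at 5103, 3728 and 3572 CPM. Pericyte markers, 7 genes, summed to 1650 to 2171 CPM in SMC2, 2781 to 3509 in SMC1, 1165 to 1226 in Intermediate and 406 to 721 in Progenitor. The part of these cells in the Angptl7 levels was not tested. Angptl7 lies at chr4:148495183-148500460 on the minus strand, inside an intron of Mtor, the kinase gene of the nutrient-sensing mTOR complexes, and shares 0 exon bases with it. Mtor averaged 33.5 CPM in Intermediate and 21.2 CPM in Progenitor, far below Angptl7 in both. In SMC2 and SMC1 Mtor averaged 32.3 and 50.9 CPM, above the Angptl7 means of 17.5 and 26.3 CPM. The part of Mtor reads in the Angptl7 level was not tested.

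The libraries of 2 groups did not overlap for 5 of the 7 genes between Intermediate and Progenitor, where that held for 38.7% of all tested genes. It held for 7 of 7 between SMC1 and Progenitor (56.4% of all genes) and for 4 of 7 between SMC2 and SMC1 (46.3%). In the secondary comparisons it held for 7 of 7 between SMC2 and Progenitor (52.8%), and for 6 of 7 both between SMC1 and Intermediate (52.9%) and between SMC2 and Intermediate (54.2%). Since the genes were picked for their levels, nothing is read from these counts. By direction, SMC1 was lower than Progenitor for 6 genes (27.7% of all genes) and higher for Angpt2 (28.7%). Intermediate was higher than Progenitor without overlap for Angpt2 and Angptl7 (21.8% of all genes) and lower for Angpt1, Angptl1 and Angptl4 (16.9%). Without SMC1 replicate 1, the library that stood apart in several marker sums, the log2 change of SMC1 over Progenitor was -2.07 for Angpt1, 3.73 for Angpt2, -1.76 for Angpt4, -0.84 for Angptl2 and -3.77 for Angptl7. That of SMC2 over SMC1 was 2.95 for Angpt1, 0.28 for Angpt2, -1.68 for Angpt4, -0.53 for Angptl2 and -0.42 for Angptl7.

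**Figure D3:**
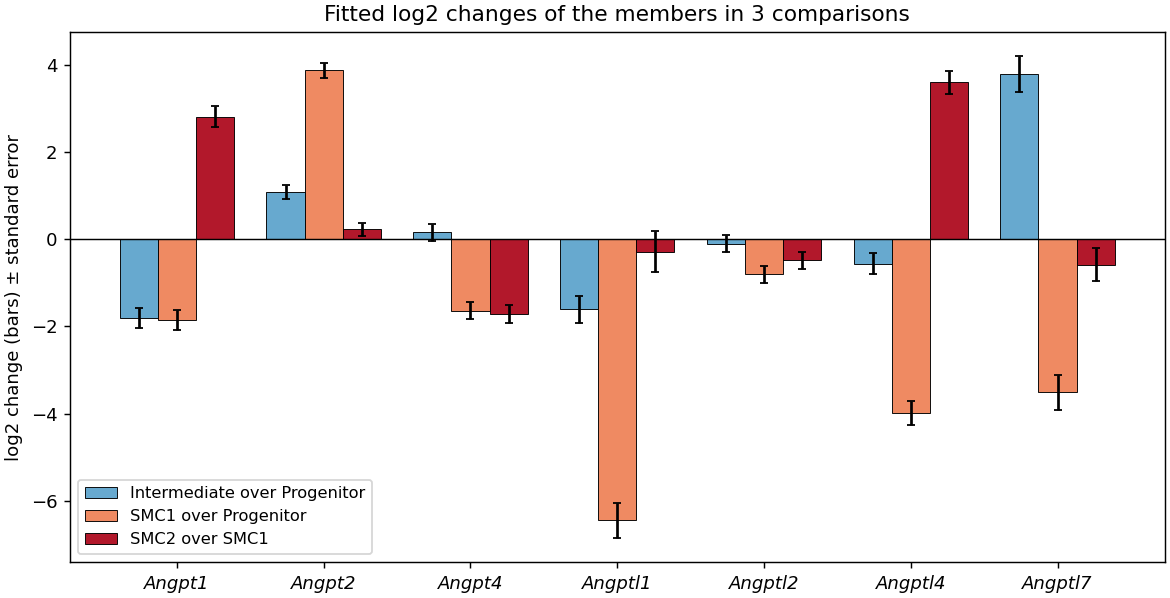
Fitted log2 change (bars) ± standard error of the 7 genes for Intermediate over Progenitor, SMC1 over Progenitor and SMC2 over SMC1, from the fit over 12 libraries. Angptl7 had the highest value for Intermediate over Progenitor (3.78), Angptl1 the lowest for SMC1 over Progenitor (-6.45), and Angpt1 and Angptl4 the highest for SMC2 over SMC1 (2.81 and 3.59).

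Likeness of pattern was measured as the root mean square difference of log2 CPM over the 12 libraries after centring each gene on its mean, among 8984 candidate genes, and is a description only. Unnamed gene models and the members themselves were left out of the candidates. Within the family the closest pair was Angpt4 and Angptl2 at 0.96 log2 units, followed by Angpt1 and Angptl4 at 1.34, and the farthest was Angpt2 and Angptl7 at 4.77. Nearest to Angpt1 were Slc22a4, a cation transporter gene, at 0.33, Cyp7b1, an oxysterol hydroxylase gene, at 0.45, and Acer2, a ceramidase gene, at 0.45. Angpt2 was nearest to Mertk, the receptor for apoptotic cells, at 0.24, Nexn, an actin-binding protein of muscle, at 0.25, and the kinase gene Stk38l at 0.28.

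Angpt4 was nearest to Thbs3, a thrombospondin, at 0.22, Tmed3, a cargo receptor gene of the secretory pathway, at 0.23, and the lysosomal hexosaminidase gene Hexa at 0.28. Angptl2 had the closest matches of all, Daglb at 0.13, the anticoagulant protein S gene Pros1 at 0.13 and the endothelin-converting enzyme gene Ece1 at 0.17. For Angptl4 the list was led by Ackr3, a chemokine scavenger receptor, at 0.19, followed by Itih5 at 0.33 and Cthrc1 at 0.37. Ackr3 shared the low SMC1 level, with means of 403 CPM in SMC2, 30.3 in SMC1, 369 in Intermediate and 653 in Progenitor. Angptl1 was nearest to Clec3b at 0.39, the scavenger receptor gene Scara5 at 0.52 and Xpnpep2 at 0.54. Angptl7 had no candidate closer than Hhip, the hedgehog-binding inhibitor, at 0.56, followed by Adamtsl2 at 0.69 and the ligand gene Bmp4 at 0.70. Hhip averaged 588 CPM in Intermediate and 30.9 CPM in Progenitor, a higher level in Intermediate like that of Angptl7.

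The receptors, targets and partners of the family come from lists of known roles and were tested in the same fit. The lists were drawn up with earlier results of these data known, so their counts are a description beside the share of all genes called. The p-values are from edgeR's quasi-likelihood test, adjusted over all 19016 genes by the Benjamini-Hochberg method, with a call below 0.05. Of 77 listed genes 69 were tested. Between Intermediate and Progenitor 27 were called, 13 higher and 14 lower, against 22.2% of all genes called, 12.7% higher and 9.46% lower. Between SMC1 and Progenitor 41 were called, 25 higher and 16 lower, against 48.3% of all genes, 25.3% higher and 23.1% lower. Without SMC1 replicate 1 these were 33 of 73 tested, 16 higher and 17 lower. Between SMC2 and SMC1 39 were called, 14 higher and 25 lower, against 34.6% of all genes, 16.5% higher and 18.1% lower. The median log2 change of the 69 genes in this last comparison was -0.34, against 0.00 over all tested genes. The secondary comparisons called 36 (SMC2 and Progenitor, background 44.8%), 39 (SMC1 and Intermediate, 41.6%) and 37 (SMC2 and Intermediate, 44.6%). The shares of all genes given here are also the background for each list counted below, and nothing is read from those counts.

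Tek, the gene of the angiopoietin receptor TIE2, was highest in Progenitor, the population in which Angpt1 exceeded Angpt2. It was at 6.72, 17 and 13.9 CPM in SMC2, 40.9, 22.3 and 22.8 CPM in SMC1, 13.6, 15.4 and 13 CPM in Intermediate and 124, 92.9 and 122 CPM in Progenitor. Tek fell in Intermediate relative to Progenitor (log2 change -3.01 ± 0.30, adjusted p = 1.87e-06) and in SMC1 relative to Progenitor (-1.98 ± 0.28, adjusted p = 1.73e-05). It was also lower in SMC2 than in SMC1 (-1.20 ± 0.28, adjusted p = 0.00333), a call lost when only those groups were fitted (adjusted p = 0.0549). The 8 endothelial markers without Tek, Tie1 and Esam summed to 52 to 115 CPM in Progenitor, overlapping SMC2 and Intermediate and below SMC1, as given with Angpt2. Their part in the Tek levels was not tested.

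Tie1, the partner receptor of TIE2, and Ptprb, the phosphatase that acts on TIE2, were highest in SMC1. Tie1 averaged 8.98 ± 3.69 CPM in SMC2, 23.1 ± 8.85 in SMC1, 5.63 ± 3.06 in Intermediate and 8.83 ± 4.11 in Progenitor, and Ptprb 24.1 ± 10.3, 70.3 ± 17.4, 48.7 ± 8.82 and 32 ± 13.8 CPM in the same order (SD, n = 3 each). Endothelial markers moved with them, since 7 of the 8 markers other than Tek, Tie1 and Esam had their highest mean in SMC1. Pecam1 averaged 49.8 CPM in SMC2, 209 in SMC1, 57.8 in Intermediate and 43.5 in Progenitor, and Vwf 18.7, 58.9, 17.5 and 20.8 CPM in the same order. Their part in the Tie1 and Ptprb levels was not tested. Against Progenitor, SMC1 was higher in Tie1 (1.40 ± 0.44, adjusted p = 0.0184) and in Ptprb (1.14 ± 0.35, adjusted p = 0.0138). Without SMC1 replicate 1 the adjusted p was 0.0936 for Tie1 and 0.0709 for Ptprb. The Tie1 call was also lost without Progenitor replicate 1 (0.0811) or replicate 2 (0.0635). Tie1 was lower in SMC2 than in SMC1 (-1.37 ± 0.44, adjusted p = 0.0275), a call lost without SMC1 replicate 1 (0.102), SMC2 replicate 1 (0.0956) or SMC2 replicate 2 (0.0791). Between Intermediate and Progenitor neither was called (adjusted p = 0.362 for Tie1 and 0.232 for Ptprb). Ptprb was lower in SMC2 than in SMC1 (-1.55 ± 0.35, adjusted p = 0.00296). Svep1, a matrix protein known as a ligand of TIE1, averaged 5.25 CPM in SMC2, 7.09 in SMC1, 642 in Intermediate and 344 in Progenitor, and fell in SMC1 relative to Progenitor (-5.60 ± 0.44, adjusted p = 3.17e-08). Between Intermediate and Progenitor Svep1 missed the threshold (0.90 ± 0.35, adjusted p = 0.0829), and it passed with the replicate numbers as a block (0.0473).

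Downstream of TIE2, the adaptor gene Grb14 and the phosphatase gene Ptpn11 rose in SMC1 relative to Progenitor (2.09 ± 0.20, adjusted p = 1.76e-08, and 1.33 ± 0.18, adjusted p = 4.62e-06). Pik3r1, the regulatory subunit of PI3-kinase, rose in Intermediate relative to Progenitor (0.92 ± 0.17, adjusted p = 0.000659) and fell in SMC1 (-0.88 ± 0.17, adjusted p = 0.000315). Of the 13 tested genes of the TIE list, 1 rose and 1 fell between Intermediate and Progenitor, 5 rose and 3 fell between SMC1 and Progenitor, and 0 rose and 5 fell between SMC2 and SMC1. Their median log2 change was 0.20, 0.36 and -0.44 in that order, against 0.08, 0.00 and 0.00 over all genes.

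**Figure D4:**
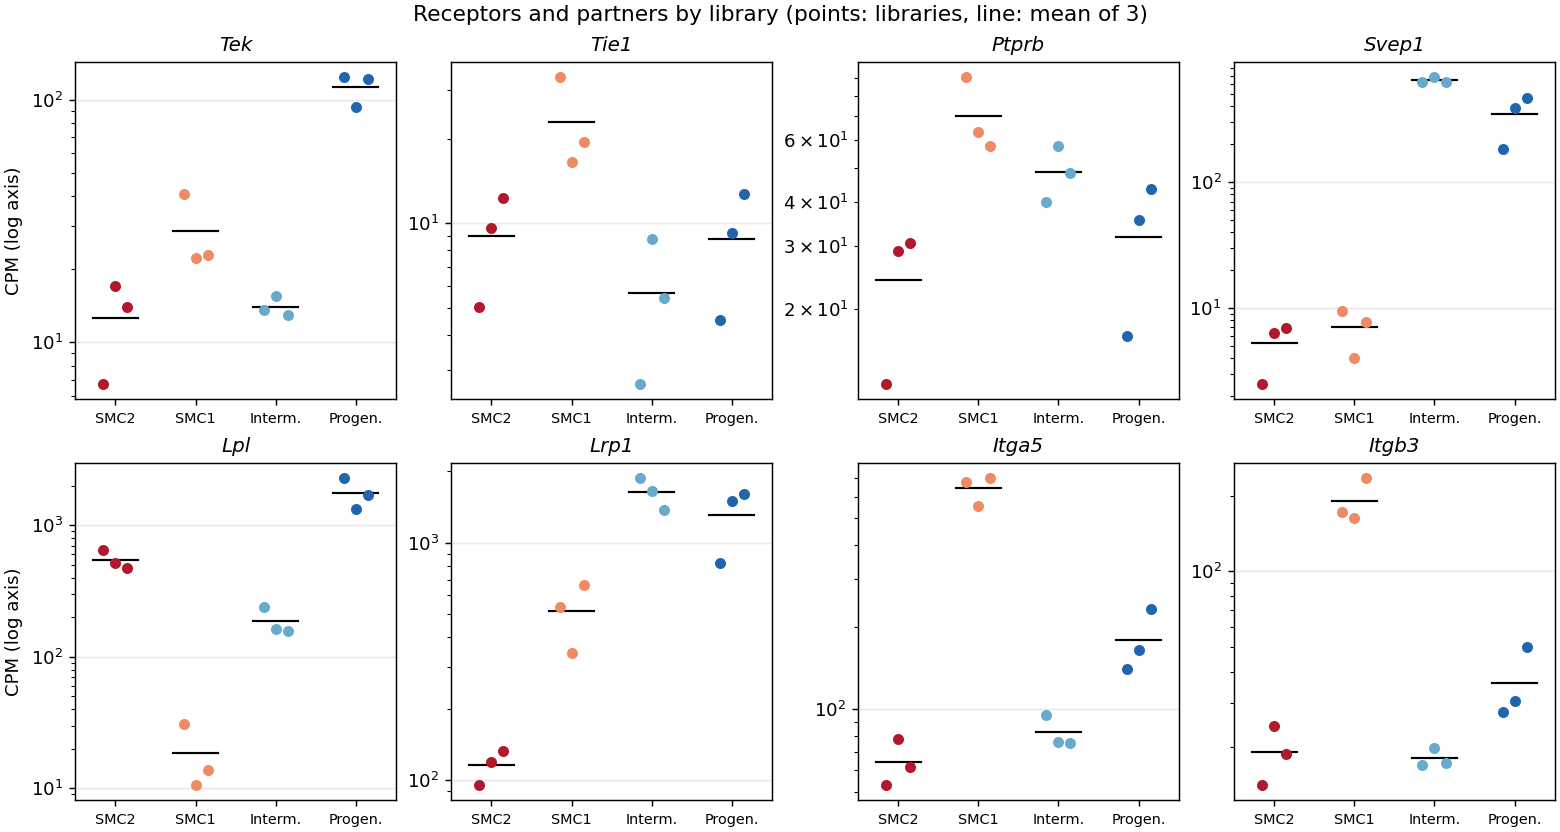
Level of 8 receptors, targets and partners by library, in CPM on a log axis of its own range for each gene; points are the 3 libraries of SMC2, SMC1, Intermediate (Interm.) and Progenitor (Progen.), and lines are their means. Tek and Lpl were highest in Progenitor, Itga5 and Itgb3 in SMC1, and Svep1 in Intermediate, with means of 113 CPM for Tek and 1768 CPM for Lpl in Progenitor.

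Lpl, the lipase that ANGPTL4 inhibits, was lowest in SMC1 and highest in Progenitor, as the mean level of Angptl4 was. It was at 644, 517 and 476 CPM in SMC2, 31.1, 10.7 and 13.9 CPM in SMC1, 238, 162 and 158 CPM in Intermediate and 2282, 1327 and 1693 CPM in Progenitor. Relative to Progenitor it fell in SMC1 (log2 change -6.57 ± 0.40, adjusted p = 3.96e-10) and in Intermediate (-3.25 ± 0.34, adjusted p = 3.38e-06), and relative to SMC1 it rose in SMC2 (4.88 ± 0.37, adjusted p = 2.31e-08). For Angptl4 the corresponding values were -3.99, -0.56 and 3.59. The adipocyte sums given above bear on Lpl in SMC2 as well, and their part was not tested.

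Gpihbp1, which carries the lipase to the capillary surface, averaged between 1.76 and 5.78 CPM. Its higher level in SMC1 than in Progenitor (1.49 ± 0.41, adjusted p = 0.00572) was lost without SMC1 replicate 1 (adjusted p = 0.103), and it was called neither between Intermediate and Progenitor (0.762) nor between SMC2 and SMC1 (0.192). Pcsk6, a proprotein convertase reported to cleave ANGPTL4, fell in SMC1 relative to Progenitor (-5.21 ± 0.30, adjusted p = 4.39e-11) and in Intermediate (-1.68 ± 0.25, adjusted p = 9.09e-05). Lrp1, a receptor that takes up lipoprotein lipase and remnant particles, fell in SMC1 relative to Progenitor (-1.34 ± 0.26, adjusted p = 0.000262) and in SMC2 relative to SMC1 (-2.15 ± 0.27, adjusted p = 2.64e-06). Of the 12 tested genes of the lipase list, 2 rose and 5 fell between Intermediate and Progenitor, 3 rose and 4 fell between SMC1 and Progenitor, and 3 rose and 5 fell between SMC2 and SMC1. Lipg and Cd36 were the other genes that rose with Lpl in SMC2 relative to SMC1, by 3.49 ± 0.47 (adjusted p = 6.69e-06) and 1.56 ± 0.28 (adjusted p = 0.000323).

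Among regulators known to act on Angptl4, Pparg, whose nuclear receptor activates the gene in fat, stood at 366 ± 77.6 CPM in SMC2, 8.17 ± 3.75 in SMC1, 2.27 ± 0.0504 in Intermediate and 27.9 ± 10.0 in Progenitor. It rose in SMC2 relative to SMC1 (5.48 ± 0.32, adjusted p = 8.64e-10) and fell relative to Progenitor in SMC1 (-1.77 ± 0.29, adjusted p = 6.03e-05) and in Intermediate (-3.62 ± 0.33, adjusted p = 6.45e-07). Intermediate had the lowest Pparg level and a mean of 187 CPM of Angptl4, against 17.4 CPM in SMC1. The receptor partner Rxrg and the coactivator Ppargc1a rose in SMC2 relative to SMC1 as well (3.71 ± 0.34, adjusted p = 3.25e-08, and 2.02 ± 0.23, adjusted p = 5.67e-07). Hif1a and Epas1, the hypoxia-inducible factors, rose in SMC1 relative to Progenitor (1.35 ± 0.20, adjusted p = 8.44e-06, and 1.67 ± 0.26, adjusted p = 2.55e-05). Angptl4 was lower in that comparison. These are transcript levels, and the part of any of these regulators in the Angptl4 levels was not tested. Of the 13 genes of this list, 3 rose and 4 fell between Intermediate and Progenitor, 5 rose and 1 fell between SMC1 and Progenitor, and 5 rose and 2 fell between SMC2 and SMC1.

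Integrins that bind ANGPTL2 ran opposite to Angptl2 between SMC1 and Progenitor. Itga5, the fibronectin receptor subunit, was at 53, 78.2 and 61.6 CPM in SMC2, 677, 553 and 702 CPM in SMC1, 95.6, 76 and 75.4 CPM in Intermediate and 140.1, 164 and 233 CPM in Progenitor. It rose in SMC1 relative to Progenitor by 1.85 ± 0.21 (adjusted p = 2.65e-07) and fell in SMC2 relative to SMC1 (-3.32 ± 0.22, adjusted p = 5.04e-10). Itgb1 and Itgb3 rose in SMC1 relative to Progenitor too (1.90 ± 0.19, adjusted p = 5.43e-08, and 2.40 ± 0.23, adjusted p = 4.53e-08). In all, 7 of the 8 binding partners rose and 0 fell in that comparison, against 25.3% higher and 23.1% lower among all genes. In SMC2 relative to SMC1 0 rose and 6 fell, against 16.5% higher and 18.1% lower among all genes. Cdh5 and Cldn5 of this list are also endothelial markers, and both had their highest mean in SMC1. The part of endothelial cells in these calls was not tested. Of the 7, Sdc4, Cdh5 and Cldn5 lost the call without SMC1 replicate 1, with adjusted p of 0.0973, 0.149 and 0.223, and Sdc4 also lost its call between SMC2 and SMC1 (0.129). Pirb, the immune receptor for ANGPTL2, averaged 2.79 to 3.96 CPM and was called in none of the 6 comparisons, with the smallest adjusted p of 0.382, for SMC1 over Progenitor. Without SMC1 replicate 1 Pirb was called lower in SMC1 than in Progenitor (adjusted p = 0.0184).

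Other vessel growth factors divided the populations in their own ways. Vegfd rose in Intermediate relative to Progenitor (2.57 ± 0.24, adjusted p = 3.96e-07), with 199 ± 58.4 CPM in Intermediate and 33.4 ± 2.59 in Progenitor, the same comparison in which Angptl7 was higher. Pgf rose in SMC2 relative to SMC1 (3.10 ± 0.19, adjusted p = 1.21e-10), with 209 ± 31.9 CPM in SMC2 and 24.5 ± 2.1 in SMC1. Vegfa rose in the same comparison by 2.06 ± 0.17 (adjusted p = 8.78e-09) and fell in SMC1 relative to Progenitor (-2.76 ± 0.17, adjusted p = 4.31e-11), the directions in which Angpt1 and Angptl4 differed. Of the 10 genes of this list, 4 rose and 1 fell between Intermediate and Progenitor, 2 rose and 4 fell between SMC1 and Progenitor, and 2 rose and 3 fell between SMC2 and SMC1.

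Outside the angiopoietin family, Mfap4, a matrix protein with a fibrinogen-like domain, rose in Intermediate relative to Progenitor (2.59 ± 0.32, adjusted p = 1.31e-05), and Tnc, the tenascin C gene, rose in SMC1 relative to Progenitor (5.96 ± 0.47, adjusted p = 7.19e-08). Of 10 tested genes with such a domain, 3 rose and 1 fell between Intermediate and Progenitor, 3 rose and 3 fell between SMC1 and Progenitor, and 3 rose and 4 fell between SMC2 and SMC1.

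Angptl6 and Angptl8, outside the selection, were low in all 4 populations. Angptl6, which shares 16.8% of its exon bases with Shfl on the opposite strand, ranged between 1.2 and 2.62 CPM. Angptl8, which takes part in the control of lipoprotein lipase, averaged 0.908 ± 0.0458 CPM in SMC2, 0.147 ± 0.117 in SMC1, 1.36 ± 0.29 in Intermediate and 2.15 ± 0.447 in Progenitor (SD, n = 3 each). It fell in SMC1 relative to Progenitor (log2 change -3.76 ± 0.52, adjusted p = 4.61e-06) and rose in SMC2 relative to SMC1 by 2.52 ± 0.54 (adjusted p = 0.000949), on 2, 6 and 1 counts in the SMC1 libraries. Its low point in SMC1 is shared with Angptl4 and Lpl.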

How the data were processed

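Members were matched by the symbols in the deposited count table. Loci, exon lengths and symbols of rows without one came by gene identifier from GENCODE M21 (GRCm38), and promoter windows from RefSeq. The authors deposited raw counts per gene and library, which were the values tested; normalized counts, a signal deposited by the authors and used in 1 alternative; and regularized log2 values, deposited but not used for tests. Per the submitters' processing notes, STAR 2.5.2a, DESeq2 1.26.0 and mm10 were used; the counting program is not given in the sources used here. Counts cover amplified fragments, not independent molecules.

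Genes passing filterByExpr (19016) were fitted with edgeR 4.0.16 (limma 3.58.1, R 4.3.3) over all 12 libraries with a mean per group, TMM factors and robust dispersions (8 residual degrees of freedom, common biological coefficient of variation 0.206). The two-sided quasi-likelihood test was adjusted by Benjamini-Hochberg over all genes, with a call at 0.05. Standard errors are the size of a log2 change over the square root of F, and log2 CPM used a prior count of 2. The code was tested on simulated data. The fit treats libraries as independent. Libraries of a group differed by more than sampling noise, with a chi-square per degree of freedom of at least 9.31.

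The 7 members and all lists were chosen with earlier results of these data known. Named genes are all members and, in the main comparisons, Tek, Tie1, Ptprb, Lpl, Gpihbp1 and Pirb, and from each list called genes among the 3 with the smallest adjusted p each way; the 3 genes nearest to each member came from genes reaching 4 log2 CPM in some group. Svep1 between Intermediate and Progenitor and Cdh5, Cldn5 and Sdc4 were named, and Esam was set apart from the endothelial markers, after their values were seen. Apoc2, Apoc3 and Apoa5 were not analysed here, and 1 listed gene is not reported here. Around the group means, libraries of Intermediate and Progenitor with the same number deviated together, at correlations of 0.171, 0.191 and 0.170. This was read as pairing, from the data and not from a label. In no other comparison did all 3 correlations exceed 0.1. The main fit leaves this pairing out of its changes, p-values and counts of calls, and the replicate block was used only as an alternative. Alternatives were median-of-ratios and upper-quartile factors, no filter, DESeq2 1.42.0, only the groups compared, a replicate block, the deposited normalized counts and leaving out each library.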

Additional observations from a re-analysis of the deposited data

How the results depend on the processing

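Of the log2 changes of the members, 497 values under the alternatives stayed within the spread of the reported ones, 7 moved and none of those with no overlap changed sign; the values that moved were those of Angpt2, Angpt4, Angptl1 and Angptl4, for instance Angpt2 at 0.92 for Intermediate over Progenitor and 3.69 for SMC1 over Progenitor with upper-quartile factors. The signs of Angpt1 between SMC1 and Intermediate, Angpt4 and Angptl2 between Intermediate and Progenitor and Angptl1 between SMC2 and SMC1, all with overlapping libraries, depended on the setting. Leaving out 1 library gave 2771 to 4105 genes called between Intermediate and Progenitor, lowest without Intermediate replicate 2, against 4218 with all libraries; the cause was not tested. With the replicate block this comparison called 4594 genes and 31 of the 69 partner genes, against 27, and the 4 added were Svep1, Egln1, Itgav and Fgl1; the block moved no count of calls by over 1.5 times. Where the numbers share no pairing, the block gave 44 partner genes between SMC1 and Progenitor and 40 between SMC2 and SMC1. Upper-quartile factors shifted the median log2 change of all genes by -0.158, -0.183 and 0.109 in the 3 main comparisons (Intermediate over Progenitor, SMC1 over Progenitor, SMC2 over SMC1) and the share of calls that were higher to 39.2% from 57.3%, to 41.3% from 52.3% and to 56.7% from 47.7%; among partner genes they gave 8 higher and 15 lower, against 13 and 14, between Intermediate and Progenitor, and 20 and 19, against 25 and 16, between SMC1 and Progenitor. Partner calls that held under every alternative numbered 17 of 27, 29 of 41 and 31 of 39 in the main comparisons, and 32 of 36, 28 of 39 and 34 of 37 in SMC2 over Progenitor, SMC1 over Intermediate and SMC2 over Intermediate. Low counts limit Angptl1 in the smooth muscle libraries and Angptl8 in SMC1.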
